A study of Mus musculus with 16 samples.

Results

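Sphingolipid and ceramide metabolism was read through 39 genes, found by symbol among the 45777 genes of the deposited table. They cover the making of ceramide, its turnover through sphingomyelin, glucosylceramide and ceramide phosphate, the ceramidases, and the enzymes, exporter and receptors of sphingosine phosphate. All 39 genes had a row in the table, and 38 of them were among the 19189 genes with enough counts to be tested. Sptssb, a small subunit of serine palmitoyltransferase, was left out of the tests because it had 4 counts in all control libraries at 8 weeks together, 4 in the LTA4H libraries of that age, and 0 in both 20-week groups.

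The libraries came from the epididymal white adipose tissue, the fat pad beside the epididymis, of male mice. OE mice, labelled A-LTA4HOE, overexpress leukotriene A4 hydrolase (LTA4H), the enzyme that makes the lipid mediator leukotriene B4, in their adipocytes, and Ctrl mice are their controls. Every mouse, controls included, was fed a high-fat diet (HFD22, 60 kcal% fat) from 4 weeks of age. The fat pad was taken at 8 weeks of age after 4 weeks of diet (groups Ctrl_8wk and OE_8wk) or at 20 weeks after 16 weeks of diet (Ctrl_20wk and OE_20wk), and each group had 4 libraries. The promoter that drives the extra LTA4H and the strain are not given in the sources used here. Age and time on the diet cannot be told apart, since all mice began the diet at the same age, nor can either be told apart from any sequencing batch that goes with age. The labels number the mice of a group, and p-values measure the spread between these libraries.

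Library totals ranged from 33.6 to 67.6 M counts. Lta4h was at 79.4 to 103.9 CPM (read counts scaled to the library's size) in all Ctrl libraries and at 239 to 427 CPM in all OE libraries with no overlap, at 3.94-fold (8 weeks) and 3.03-fold (20 weeks) the Ctrl level. The mature adipocyte markers summed to 12360 to 46730 CPM and none of the 16 was at 0 in any library. Ctrl_8wk replicate 4 and OE_8wk replicate 2 stood apart: markers of the epididymal duct summed to 3692 and 2427 CPM there, against at most 196 in the other 8-week libraries and at most 3.98 at 20 weeks. The 196 CPM was in Ctrl_8wk replicate 3, where the rest of the 8-week libraries had 1.89 to 19.7 CPM. Below, the pair with epididymal transcripts means Ctrl_8wk replicate 4 and OE_8wk replicate 2, and Ctrl_8wk replicate 3 was kept in fits without that pair. The 8-week libraries numbered 1 deviated from their group means together (r = 0.826 across genes, a description), and calls that go when 1 library is left out are given with that library's name.

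As background, sphingolipids are built on a long-chain base that serine palmitoyltransferase makes from serine and a fatty acyl-CoA in the endoplasmic reticulum. Reduction, acylation by a ceramide synthase and desaturation turn that base into ceramide, which is carried on to sphingomyelin or glucosylceramide or is broken down to sphingosine. Sphingosine kinases make sphingosine phosphate, which is either cleaved for good by its lyase or exported to act on G protein-coupled receptors. In obese adipose tissue ceramides are known for their link to impaired insulin action, and sphingosine phosphate for its part in immune cell traffic and vessel function.

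Scaled by gene length (the authors' TPM), Degs1 and Ormdl3 were the most abundant of the 39 genes at 8 weeks, at 256 ± 60.1 and 256 ± 21.5 TPM in Ctrl (mean ± SD, n = 4). Their SDs overlapped. Cers2, which makes very-long-chain ceramides, followed at 161 ± 7.81 TPM, Smpdl3a at 122 ± 21.2 TPM and Sptssa at 108 ± 10.8 TPM. By 20 weeks the acid ceramidase gene Asah1 stood at 236 ± 31.0 TPM in Ctrl, within the SD of Ormdl3 at 239 ± 61.2 TPM, after 104 ± 6.62 TPM at 8 weeks. At the other end, Sgpp2 and Sptssb were each below 0.21 TPM in every group mean, and Degs2 and Sptlc3 stayed below 3.2 TPM. In these bulk samples, fewer cells of a type and less RNA per cell cannot be told apart.

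The comparison of 20 with 8 weeks asked how the fat pad changes over the course of the diet, and it was made in Ctrl and in OE mice with no library in common. Passing in both genotypes, 8 genes rose and 3 fell. S1pr2, a sphingosine phosphate receptor, Cerk, the ceramide kinase, Sgpl1, the sphingosine phosphate lyase, Cers6, a ceramide synthase that prefers palmitoyl-CoA, and Asah1 all rose, by log2 fold changes of 0.87 (Asah1 in OE) to 2.04 (Cerk in Ctrl). Kdsr, which carries out the reduction step of long-chain base synthesis, fell in both, by 0.85 on the log2 scale in Ctrl and by 0.73 in OE. Neither Sptlc1, the common subunit of serine palmitoyltransferase, nor Cers2, the most abundant ceramide synthase gene here, passed the test: Sptlc1 had log2 fold changes of −0.08 ± 0.06 (Ctrl) and −0.01 ± 0.06 (OE), and Cers2 of 0.09 ± 0.10 and 0.10 ± 0.10. Sptlc1 did pass in Ctrl, as lower, without the pair of libraries with epididymal transcripts and in limma voom.

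A gene was called at a Benjamini-Hochberg adjusted p under 0.05 over all 19189 genes in edgeR's quasi-likelihood test. In Ctrl, 11 of the 38 members tested rose with age (28.9%; 19.6% of all genes did) and 7 fell (18.4%; 21.3% of all genes). In OE, 8 rose (21.1%; 13.1% of all genes) and 3 fell (7.89%; 9.91% of all genes). The same 8 that rose in OE also rose in Ctrl, against 12% of all genes that rose in both, and all 3 that fell in OE fell in Ctrl, against 8.36%. The shares that rose were above the background and the shares that fell were near or below it. The difference from the background was not tested, and the members were chosen with earlier results of these data known. By role, serine palmitoyltransferase and its regulators had 3 of 7 tested genes that rose in Ctrl and 1 in OE, with 0 that fell. Ceramide synthesis had 1 of 7 that rose and 3 that fell in Ctrl, and 1 and 1 in OE. The 10 genes of sphingomyelin, ceramide phosphate and glucosylceramide had 3 and 2 in Ctrl and 2 and 1 in OE, the 4 ceramidases 1 and 0 in both, the 6 genes of sphingosine phosphate metabolism and export 2 and 1 in Ctrl and 2 and 0 in OE, and the 4 receptors 1 and 1 in both. The ages did not overlap in CPM for 14 members in Ctrl (36.8%; 33.2% of all genes) and 10 in OE (26.3%; 22.3% of all genes). The members' median log2 fold change was 0.068 in Ctrl and 0.093 in OE, beside −0.049 and −0.033 over all genes.

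**Figure D1:**
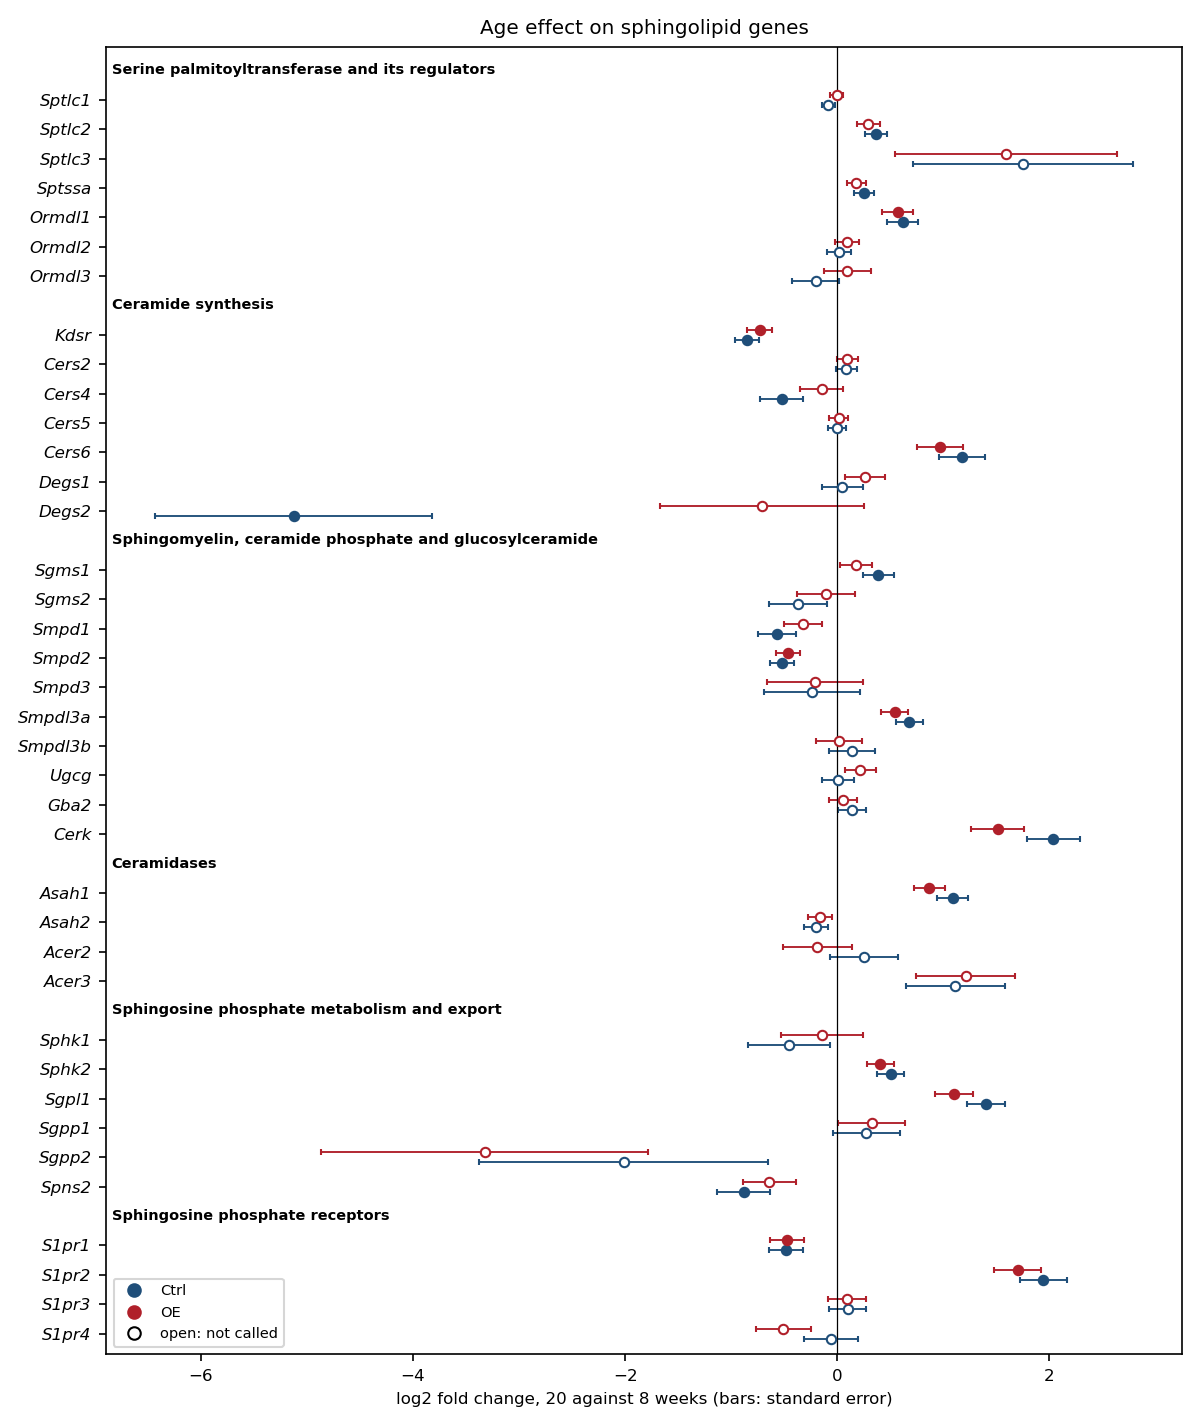
Log2 fold change of each of the 38 tested genes at 20 against 8 weeks, in Ctrl (blue) and OE (red), grouped by role; points are estimates, bars standard errors, and filled points passed the test. S1pr2, Cerk, Sgpl1, Cers6 and Asah1 lie to the right in both genotypes, Kdsr, Smpd2 and S1pr1 to the left, and the wide bars belong to the low-count genes Sptlc3, Degs2 and Sgpp2.

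The calls on age depended on 1 setting above all. With 2 surrogate variables (factors estimated from the expression data and added to the fit), 1 member rose in Ctrl, Cerk at 0.74 (adjusted p = 0.0451), and 0 fell. Sizes in Ctrl differed in how far they moved: Kdsr was at −0.76 (adjusted p = 0.0884), close to its −0.85 without these variables, S1pr2 was at 1.11 (adjusted p = 0.105) and Cers6 at 0.28 (adjusted p = 0.606). With the same variables, 5 members rose in OE and 1 fell, Kdsr. The 5 were Cerk, Sgpl1 and S1pr2 at 0.66, 0.56 and 1.16, Smpdl3a, and Ormdl3, which was not called without these variables. The OE calls of Asah1 (adjusted p = 0.0782), Cers6, Ormdl1, Sphk2, Smpd2 and S1pr1 were lost. The same setting took the calls over all genes in Ctrl from 3770 to 252 that rose and from 4083 to 99 that fell, and in OE from 2509 to 889 and from 1902 to 394. Without the pair of libraries with epididymal transcripts, 12 members rose and 7 fell in Ctrl, and 10 rose and 4 fell in OE, beside 3984 and 4087 of all genes in Ctrl and 2988 and 2507 in OE. Of the calls with all libraries, those of Sptssa (adjusted p = 0.0796), Sgms1 (0.0609) and S1pr1 (0.0703) in Ctrl were lost without that pair. Sptlc1 was among the 7 that fell in Ctrl without the pair, though it was not called with all libraries. Without the 8-week libraries numbered 1 the counts were 9 and 5 in Ctrl and 7 and 3 in OE, beside 3788 and 4460 of all genes in Ctrl and 2544 and 2152 in OE. The 7 that fell in Ctrl became 4 when Ctrl_8wk replicate 1 or 3 or Ctrl_20wk replicate 2 or 3 was left out. Of all genes, 4318, 3171, 2685 and 2518 fell in Ctrl in those fits, in that order.

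Markers of other cell types moved with the same contrast. The summed CPM of 12 macrophage markers was 1462 to 2471 in Ctrl_8wk and 1837 to 3121 in OE_8wk, against 5160 to 8283 in Ctrl_20wk and 3524 to 8078 in OE_20wk, and 11 of the 12 rose in Ctrl and 10 rose and 1 fell in OE. For 10 markers of lipid-associated macrophages it was 673 to 1182 and 850.2 to 1807 at 8 weeks against 4711 to 8406 and 3222 to 8909 at 20 weeks, and all 10 rose in both. Of 16 mature adipocyte markers 12 fell in Ctrl and 10 in OE, and of 12 endothelial markers, whose cells are known for S1pr1, 11 fell in Ctrl and 3 in OE. The endothelial sum was 1419 to 1767 and 1439 to 1813 CPM at 8 weeks and 853.4 to 1105 and 860.6 to 1520 CPM at 20 weeks, in Ctrl and OE. Of 10 smooth muscle markers 7 fell and 2 rose in Ctrl, and 6 fell and 1 rose in OE, and their sum was highest in the pair with epididymal transcripts (4126 and 4112 CPM). Of 8 B and plasma cell markers 6 rose in Ctrl and 0 in OE, with sums of 401 to 1096 and 603 to 1436 CPM at 8 weeks and 293 to 1832 and 273 to 753.7 CPM at 20 weeks. The 1832 CPM was in Ctrl_20wk replicate 1, whereas replicates 2 to 4 of that group were at 356, 293 and 657 CPM. Of 8 T cell markers 2 rose in Ctrl and 1 in OE, and their sum was at most 67.2 CPM in any library. That highest T cell sum was also in Ctrl_20wk replicate 1, and the rest of its group had 18.5 to 28.8 CPM. Of 10 fibroblast and progenitor markers 4 rose in Ctrl, and 1 rose and 1 fell in OE. Of 8 mesothelial markers 2 fell in Ctrl and 6 in OE, and of 5 tested neutrophil markers 1 rose in each. None of these macrophage, adipocyte or endothelial markers was at 0 in any library. OE_20wk replicate 1, the lowest 20-week library for S1pr2, Cerk, Sgpl1, Cers6 and Asah1, also had the lowest macrophage sum of its age, 3524, and the highest adipocyte sum, 30260. By the sum of the 12 macrophage markers, other libraries of that age did not keep this order. Ctrl_20wk replicate 1 had a macrophage sum of 7940 and the lowest S1pr2 of its group. OE_20wk replicate 2, at 8078, was below replicate 4, at 7320, for each of these genes. Their lipid-associated macrophage sums had the opposite order, 6756 and 8909. In Ctrl_20wk replicates 1 to 4 the lipid-associated sums were 4791, 8406, 7231 and 4711. S1pr2 was lower there in replicates 1 and 4 than in replicates 2 and 3. The part of these cell types in the members' changes was not tested.

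**Figure D2:**
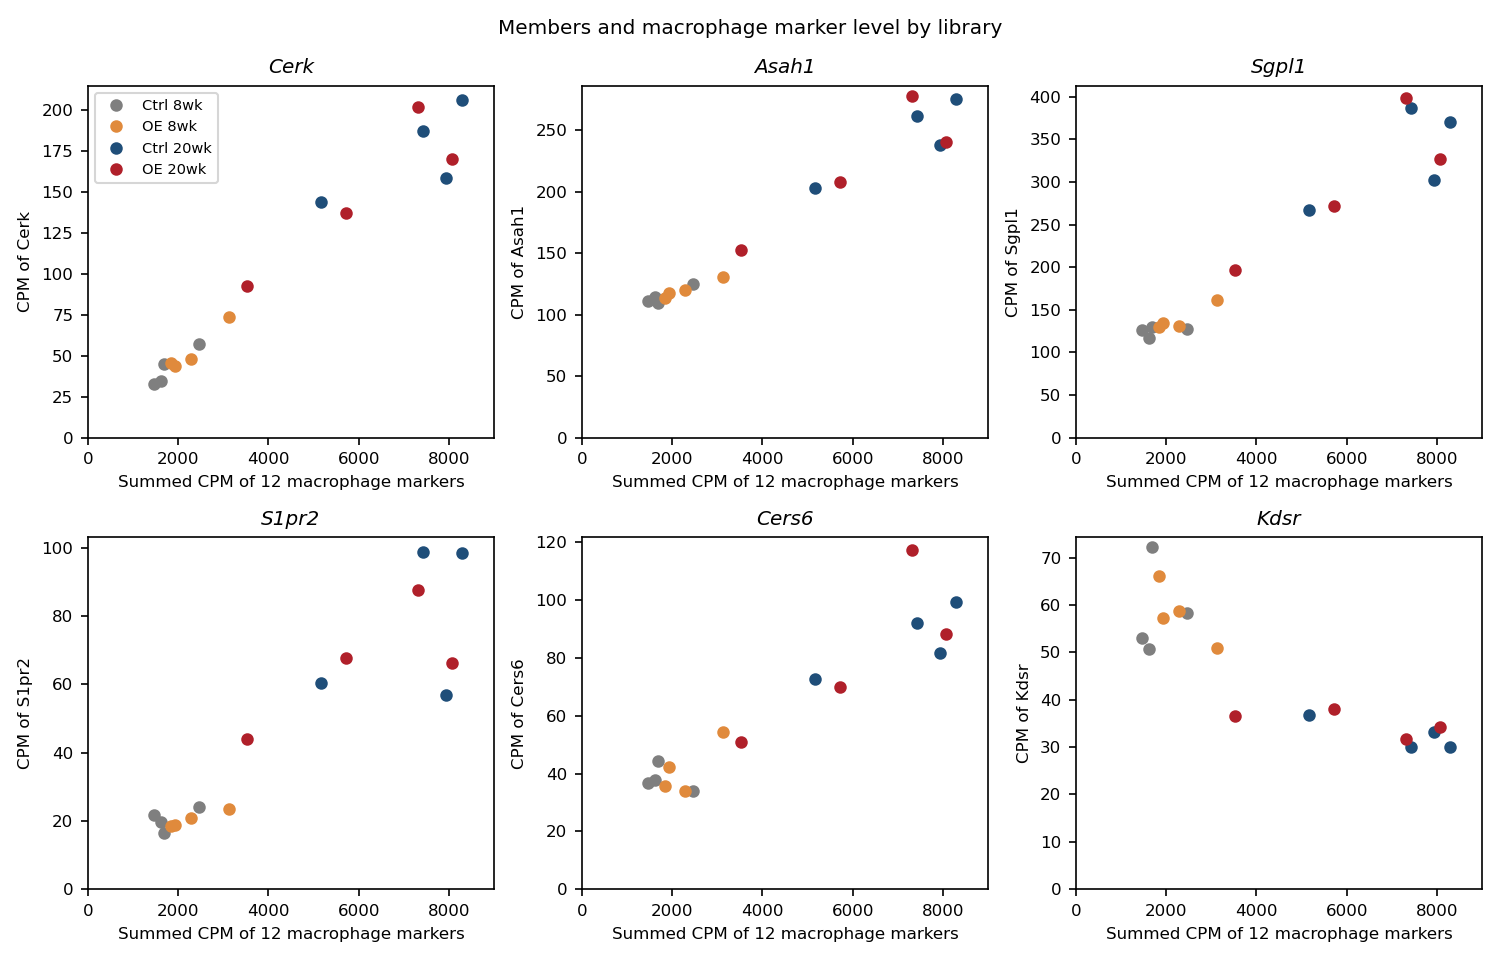
CPM of 6 genes (vertical axes) against the summed CPM of 12 macrophage markers (horizontal axes), 1 point for each of the 16 libraries, coloured by group. The 8-week libraries sit between 1462 and 3121 on the horizontal axis and the 20-week libraries between 3524 and 8283. Cerk, Asah1, Sgpl1 and S1pr2 are higher and Kdsr is lower in every 20-week library than in every 8-week one. Cers6 is higher too, except that OE_20wk replicate 1 is below OE_8wk replicate 2. The genes were chosen for their calls with age and the sums separate the ages, so the panels test no link within an age. In Ctrl_20wk, replicate 1 has a sum of 7940 but the lowest S1pr2, 56.8 CPM. Its sum of lipid-associated macrophage markers, not plotted, is 4791, in a group that spans 4711 to 8406.

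Among the receptors, S1pr2 (gene ID 14739, mm10 chromosome 9, 20965952 to 20976793) rose in both genotypes. At 8 weeks it was at 24.0, 21.7, 19.6 and 16.6 CPM in Ctrl replicates 1 to 4 and at 20.8, 23.3, 18.6 and 18.9 CPM in OE. At 20 weeks it was at 56.8, 98.9, 98.5 and 60.3 CPM in Ctrl and at 44.1, 66.1, 67.6 and 87.5 CPM in OE. Every 20-week library was above every 8-week library, with OE_20wk replicate 1 the lowest of the later age. The log2 fold change was 1.94 ± 0.22 in Ctrl (SE, 3.85-fold, adjusted p = 5.40e-05) and 1.70 ± 0.22 in OE (3.25-fold, adjusted p = 0.00041). S1pr1, the receptor best known from endothelium and lymphocytes, went the other way. It stood at 123, 82.6, 108 and 124 CPM in Ctrl_8wk and 109, 66.3, 69.1 and 69.3 CPM in Ctrl_20wk, where replicate 1 was level with the younger libraries. In OE it stood at 118, 110.2, 137 and 121 CPM at 8 weeks and 88.1, 99.2, 81.4 and 82.1 CPM at 20 weeks, with no overlap. S1pr1 fell by 0.48 (SE 0.16, adjusted p = 0.0286) in Ctrl and by 0.47 (SE 0.16, adjusted p = 0.0475) in OE on the log2 scale. With 1 library left out at a time the Ctrl call was kept in 10 of 16 fits, and was lost without Ctrl_8wk replicates 1, 3 or 4 or Ctrl_20wk replicates 2, 3 or 4. The OE call was kept in 5 of 16 and lost without Ctrl_8wk replicate 3, OE_8wk replicates 1, 3 or 4, Ctrl_20wk replicates 2, 3 or 4 or OE_20wk replicates 1, 2, 3 or 4. S1pr3 and S1pr4 did not pass the test, with S1pr3 at 0.10 ± 0.18 and 0.09 ± 0.18 and S1pr4 at −0.06 ± 0.26 and −0.51 ± 0.26 in Ctrl and OE.

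With S1pr2 up and S1pr1 down, the make-up of the 4 receptor transcripts differed between the ages. Of their summed TPM within a library, S1pr2 held 13.8 ± 3.05% in Ctrl_8wk and 12.1 ± 2.42% in OE_8wk (SD, n = 4), and 43.5 ± 10.5% in Ctrl_20wk and 37.8 ± 6.91% in OE_20wk. The lowest 20-week library, at 28.9%, was above the highest 8-week one, at 17.7%. S1pr1 held 69.6 ± 5.45% and 72.4 ± 4.18% at 8 weeks and 42.0 ± 10.9% and 48.1 ± 6.64% at 20 weeks in Ctrl and OE. In Ctrl_20wk S1pr2 averaged 59.2 ± 18.5 TPM and S1pr1 56.1 ± 13.4 TPM, which did not differ beyond their SDs. These shares were chosen after the values were seen and carry no test.

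**Figure D3:**
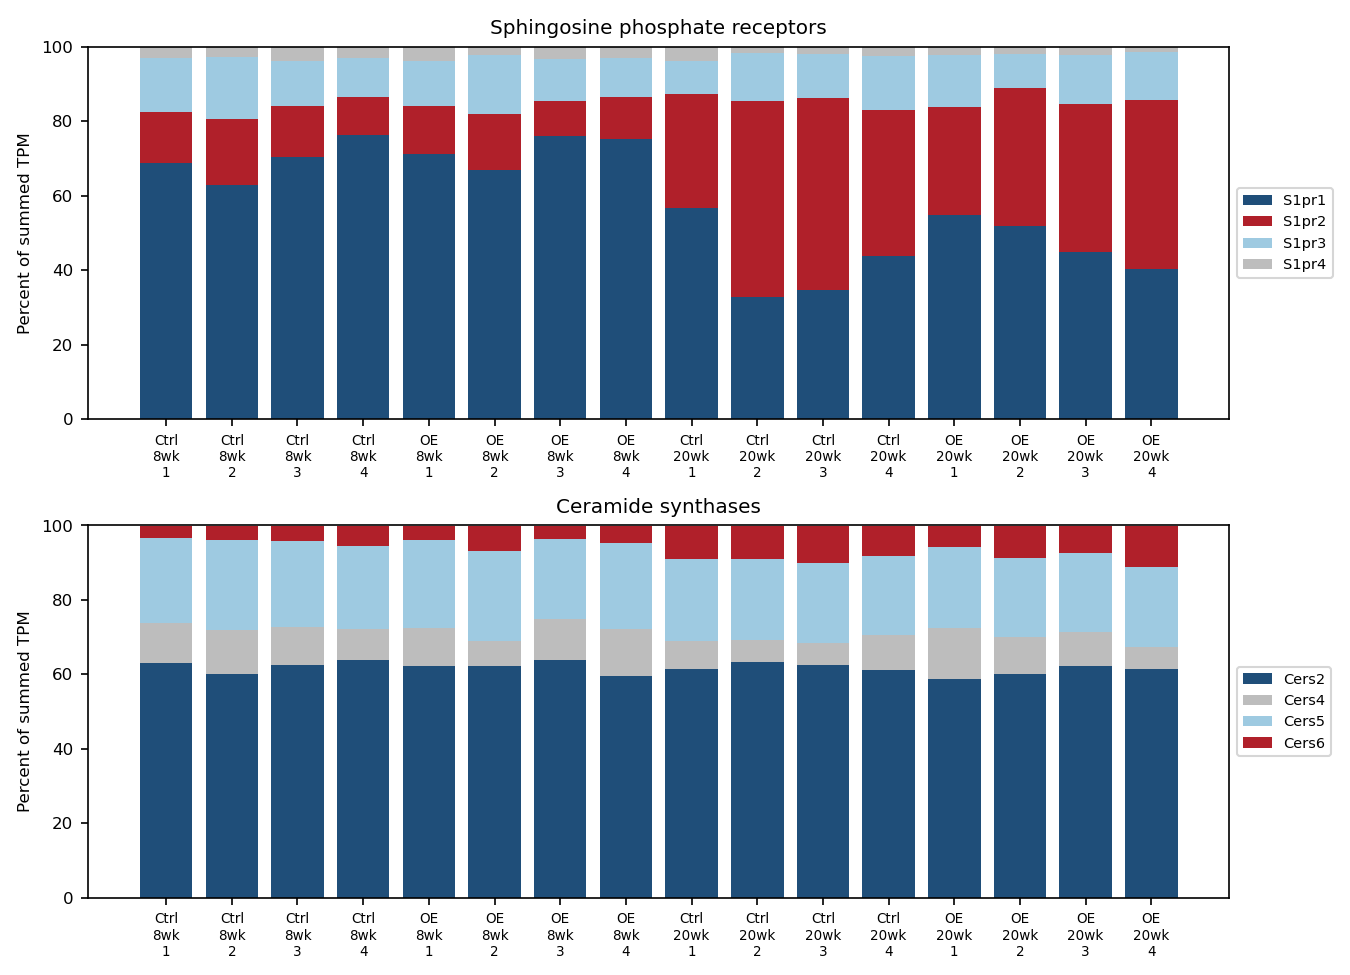
Share of each receptor gene in the summed TPM of S1pr1 to S1pr4 (top) and of each ceramide synthase gene in the summed TPM of Cers2, Cers4, Cers5 and Cers6 (bottom), in percent, with 1 bar for each of the 16 libraries. The red S1pr2 segment spans 9.35 to 17.7% at 8 weeks and 28.9 to 52.5% at 20 weeks, and the red Cers6 segment is 3.44 to 6.88% and then 5.86 to 11.1%.

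In the handling of sphingosine phosphate itself, the lyase gene Sgpl1 (gene ID 20397, mm10 chromosome 10, 61098642 to 61147684) rose. It was at 128, 127, 117 and 129.8 CPM in Ctrl_8wk and 131, 161, 130 and 135 CPM in OE_8wk. By 20 weeks the values were 302, 387, 370.1 and 267 CPM in Ctrl and 197, 327, 271 and 399 CPM in OE. The ages did not overlap in either genotype, and OE_20wk replicate 1 was again the lowest of its age. The log2 fold change was 1.40 ± 0.18 in Ctrl (2.64-fold, adjusted p = 9.11e-05) and 1.10 ± 0.18 in OE (2.14-fold, adjusted p = 0.000981). Sphk2, the kinase with nuclear and mitochondrial forms, rose less: it was at 38.9, 40.2, 36.1 and 40.5 CPM in Ctrl_8wk and 44.9, 66.9, 63.6 and 45.5 CPM in Ctrl_20wk. In OE it was at 36.0, 43.2, 39.3 and 35.4 CPM at 8 weeks and 45.2, 50.7, 56.1 and 51.8 CPM at 20 weeks. The log2 fold changes of 0.50 ± 0.13 (adjusted p = 0.00655) and 0.41 ± 0.13 (adjusted p = 0.0313) came with no overlap between ages, but the call in OE was lost without OE_8wk replicates 1, 3 or 4 or OE_20wk replicates 2, 3 or 4. Of its exon bases, 13% overlap Dbp and 8.97% overlap Rpl18 on the opposite strand, and since the strand setting of the authors' counting is not given in the sources used here, reads there cannot be told apart; Dbp had −0.25 and −0.26 and Rpl18 0.23 and 0.13 with age in Ctrl and OE. Sphk1, the cytosolic kinase, did not pass (−0.45 ± 0.39 and −0.14 ± 0.39), nor did the phosphatase genes Sgpp1 (0.28 ± 0.32 and 0.32 ± 0.32) and Sgpp2 (−2.01 ± 1.36 and −3.33 ± 1.54). The exporter gene Spns2 fell in Ctrl by 0.88 (SE 0.25, adjusted p = 0.0135) and stood at −0.64 ± 0.25 in OE (adjusted p = 0.0786). Sgpp1 was at 105.3 and 76.5 CPM in the pair with epididymal transcripts, while the remaining 8-week values were 34.5 to 55.6 CPM. Without that pair its value in Ctrl was 0.72 (adjusted p = 0.0191).

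Among the ceramidases, Asah1 (gene ID 11886, mm10 chromosome 8, 41340646 to 41397644), which works in the lysosome, rose. It was at 125, 111, 114 and 109 CPM in Ctrl_8wk and 120, 131, 114 and 117 CPM in OE_8wk. At 20 weeks it was at 238, 261, 275 and 203 CPM in Ctrl and 153, 241, 208 and 278 CPM in OE. All 20-week libraries lay above all 8-week libraries. The log2 fold change was 1.09 ± 0.15 (2.13-fold, adjusted p = 0.000128) in Ctrl and 0.87 ± 0.15 (adjusted p = 0.00126) in OE. The neutral ceramidase gene Asah2 (−0.20 ± 0.11 and −0.16 ± 0.11) and the Golgi alkaline ceramidase gene Acer2 (0.25 ± 0.32 and −0.19 ± 0.32) did not pass. Acer3, a further alkaline ceramidase gene, had 1.12 ± 0.47 in Ctrl and 1.21 ± 0.47 in OE, with adjusted p = 0.0684 and 0.0753. Its 8-week values were 10.4 to 20.0 CPM apart from 55.4 and 39.5 CPM in the pair with epididymal transcripts. Without that pair its log2 fold change was 1.79 in Ctrl (adjusted p = 0.000684) and 1.72 in OE (adjusted p = 0.0017), and it passed in both. Acer3 shares stretches of at least 150 bases at 95% identity or more with transcripts of many other genes, so its counts are uncertain.

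In the group that turns ceramide into sphingomyelin, glucosylceramide and ceramide phosphate, Cerk (gene ID 223753, mm10 chromosome 15, 86139101 to 86186259) rose. Its values were 57.1, 32.8, 34.8 and 44.7 CPM in Ctrl_8wk and 48.0, 73.5, 45.3 and 43.9 CPM in OE_8wk. They were 158, 187, 206 and 144 CPM in Ctrl_20wk and 92.8, 170, 137 and 201.8 CPM in OE_20wk. The ages did not overlap, with OE_8wk replicate 2 and OE_20wk replicate 1 the closest. Cerk had a log2 fold change of 2.04 ± 0.25 (4.10-fold, adjusted p = 7.91e-05) in Ctrl and 1.51 ± 0.25 (2.85-fold, adjusted p = 0.00107) in OE. Smpdl3a, which encodes a secreted phosphodiesterase of the acid sphingomyelinase family, was at 141, 98.0, 105 and 87.1 CPM in Ctrl_8wk and 148, 111, 125 and 121 CPM in OE_8wk. By 20 weeks the values were 177, 176, 178 and 161 CPM in Ctrl and 168, 187, 187 and 194 CPM in OE. It rose with no overlap, by 0.68 ± 0.13 (adjusted p = 0.00109) and 0.54 ± 0.13 (adjusted p = 0.00794).

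Smpd2, a neutral sphingomyelinase gene, fell. It was at 23.0, 25.7, 28.9 and 26.0 CPM in Ctrl_8wk and 18.2, 19.4, 16.0 and 18.9 CPM in Ctrl_20wk. In OE it was at 22.8, 28.2, 27.4 and 27.3 CPM at 8 weeks and 22.6, 17.3, 20.6 and 15.9 CPM at 20 weeks. The ages did not overlap in either genotype, and Smpd2 fell by 0.52 (SE 0.11, adjusted p = 0.00304) in Ctrl and by 0.47 (SE 0.11, adjusted p = 0.00989) in OE. It shares 20.3% of its exon bases with Mical1 on the opposite strand, which moved the other way (0.99 and 0.81). The acid sphingomyelinase gene Smpd1 fell in Ctrl by 0.57 (SE 0.18, adjusted p = 0.0221) and stood at −0.32 ± 0.18 in OE (adjusted p = 0.206); the Ctrl call was lost without Ctrl_8wk replicates 1, 2 or 3 or Ctrl_20wk replicates 2 or 3. Smpd1 was lowest of the 8-week libraries in the pair with epididymal transcripts, and without that pair it had −0.72 and −0.46 in Ctrl and OE (adjusted p = 0.000563 and 0.0101). Sgms1, the Golgi sphingomyelin synthase gene, rose in Ctrl by 0.39 ± 0.15 (adjusted p = 0.0494). That call was kept in 4 of 16 fits with 1 library left out, and was lost without Ctrl_8wk replicates 1, 2, 3 or 4, OE_8wk replicates 1, 2, 3 or 4, Ctrl_20wk replicates 1, 2 or 4 or OE_20wk replicate 2. Sgms2, Smpd3, Smpdl3b, Ugcg (glucosylceramide synthase) and Gba2 (the glucosylceramidase outside lysosomes) did not pass in either genotype, with log2 fold changes between −0.37 and 0.22. Smpd3, a neutral sphingomyelinase gene, was at 105.6 and 73.2 CPM in the 8-week libraries numbered 1 and between 21.2 and 38.9 CPM in the rest of that age.

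In the making of ceramide, Kdsr (gene ID 70750, mm10 chromosome 1, 106720410 to 106759742) fell. It was at 58.3, 53.0, 50.8 and 72.1 CPM in Ctrl_8wk and 58.7, 51.0, 66.1 and 57.3 CPM in OE_8wk. At 20 weeks it was at 33.3, 30.0, 30.1 and 36.8 CPM in Ctrl and 36.5, 34.1, 37.9 and 31.8 CPM in OE. No 20-week library reached an 8-week one, and OE_20wk replicate 1 was not apart from the rest here. Kdsr was 1.80-fold lower in Ctrl (adjusted p = 0.000132) and 1.66-fold lower in OE (adjusted p = 0.000852). Cers6 (gene ID 241447, mm10 chromosome 2, 68861145 to 69114284) was at 34.0, 36.9, 37.6 and 44.2 CPM in Ctrl_8wk and 34.0, 54.5, 35.7 and 42.2 CPM in OE_8wk. By 20 weeks the values were 81.7, 92.1, 99.4 and 72.7 CPM in Ctrl and 50.8, 88.4, 69.8 and 118 CPM in OE. The ages did not overlap in Ctrl, whereas in OE replicate 1 of the later age was below replicate 2 of the earlier one. Cers6 rose by 1.18 ± 0.22 (adjusted p = 0.000936) and 0.97 ± 0.22 (adjusted p = 0.00584). Its share of the summed TPM of Cers2, Cers4, Cers5 and Cers6 was 4.29 ± 0.90% in Ctrl_8wk and 8.99 ± 0.75% in Ctrl_20wk, and 4.78 ± 1.49% and 8.30 ± 2.19% in OE. Cers2 kept the largest share of the 4 in every library.

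Cers4 fell in Ctrl by 0.53 (SE 0.20, adjusted p = 0.0489) and stood at −0.15 ± 0.20 in OE. Its call was lost without Ctrl_8wk replicates 1, 2 or 3, OE_8wk replicates 3 or 4, Ctrl_20wk replicates 1, 2 or 3 or OE_20wk replicates 2 or 3. Cers4 was lowest at 8 weeks in the pair with epididymal transcripts (54.0 and 53.3 CPM), and without them it had −0.67 in Ctrl (adjusted p = 0.00476) and −0.29 in OE (adjusted p = 0.178). Cers5 had 0.00 ± 0.09 and 0.01 ± 0.09, and the desaturase gene Degs1 0.05 ± 0.19 and 0.26 ± 0.19, in Ctrl and OE. Degs2, whose enzyme can also hydroxylate the ceramide base, was near the floor: it had 177 counts over the 4 Ctrl_8wk libraries and 3 over the 4 Ctrl_20wk libraries. Scaled for library size, that is a ratio of 43.2 (95% exact interval 14.6 to 211.6, for counting error only). It passed in Ctrl (adjusted p = 0.00746), although Ctrl_8wk replicate 1 was at 0 as well, and it stood at −0.71 ± 0.96 in OE. Of its exon bases, 10.8% overlap Evl on the opposite strand, which rose in both genotypes (2.77 and 2.38).

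For serine palmitoyltransferase and its regulators, the call shared by both genotypes was that of Ormdl1, which encodes an inhibitor of the enzyme. Of the Ormdl1 exon bases, 8.72% overlap Gm28778, a protein-coding gene on the same strand, and reads there cannot be told apart. Ormdl1 was at 14.1, 9.87, 11.8 and 11.3 CPM in Ctrl_8wk and 12.6, 13.3, 12.1 and 10.3 CPM in OE_8wk. At 20 weeks it was at 18.7, 19.5, 19.2 and 14.9 CPM in Ctrl and 14.6, 19.3, 15.8 and 22.1 CPM in OE. The lowest 20-week libraries were just above the highest 8-week ones, and Ormdl1 rose by 0.62 ± 0.15 (adjusted p = 0.00482) and 0.57 ± 0.15 (adjusted p = 0.0123), a call lost in OE without OE_20wk replicate 4. Its paralog Ormdl3, much more abundant at 256 ± 21.5 TPM in Ctrl_8wk against 13.0 ± 1.93 TPM for Ormdl1, had −0.20 ± 0.22 and 0.10 ± 0.22. Ormdl2 had 0.02 ± 0.11 and 0.09 ± 0.11, and 66.7% of its exon bases overlap Dnajc14 on the opposite strand. The catalytic subunit gene Sptlc2 rose in Ctrl by 0.36 ± 0.11 (adjusted p = 0.0149) and had 0.29 ± 0.11 in OE (adjusted p = 0.0578). Sptssa rose in Ctrl by 0.25 ± 0.09 (adjusted p = 0.0394) and had 0.18 ± 0.09 in OE. The Sptssa call was lost without Ctrl_8wk replicates 1, 3 or 4, OE_8wk replicate 4, Ctrl_20wk replicates 1, 2 or 3 or OE_20wk replicate 3. Sptlc3, the subunit that broadens the acyl-CoAs used, was at 0 to 0.72 CPM at 8 weeks outside the pair of libraries with epididymal transcripts, at 3.05 and 1.99 CPM in that pair, and at 1.38 to 4.85 CPM at 20 weeks. It did not pass with all libraries (1.75 ± 1.04 and 1.59 ± 1.04), and without the pair it had 3.69 in Ctrl (adjusted p = 0.00646) and 2.72 in OE (adjusted p = 0.0323).

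**Figure D4:**
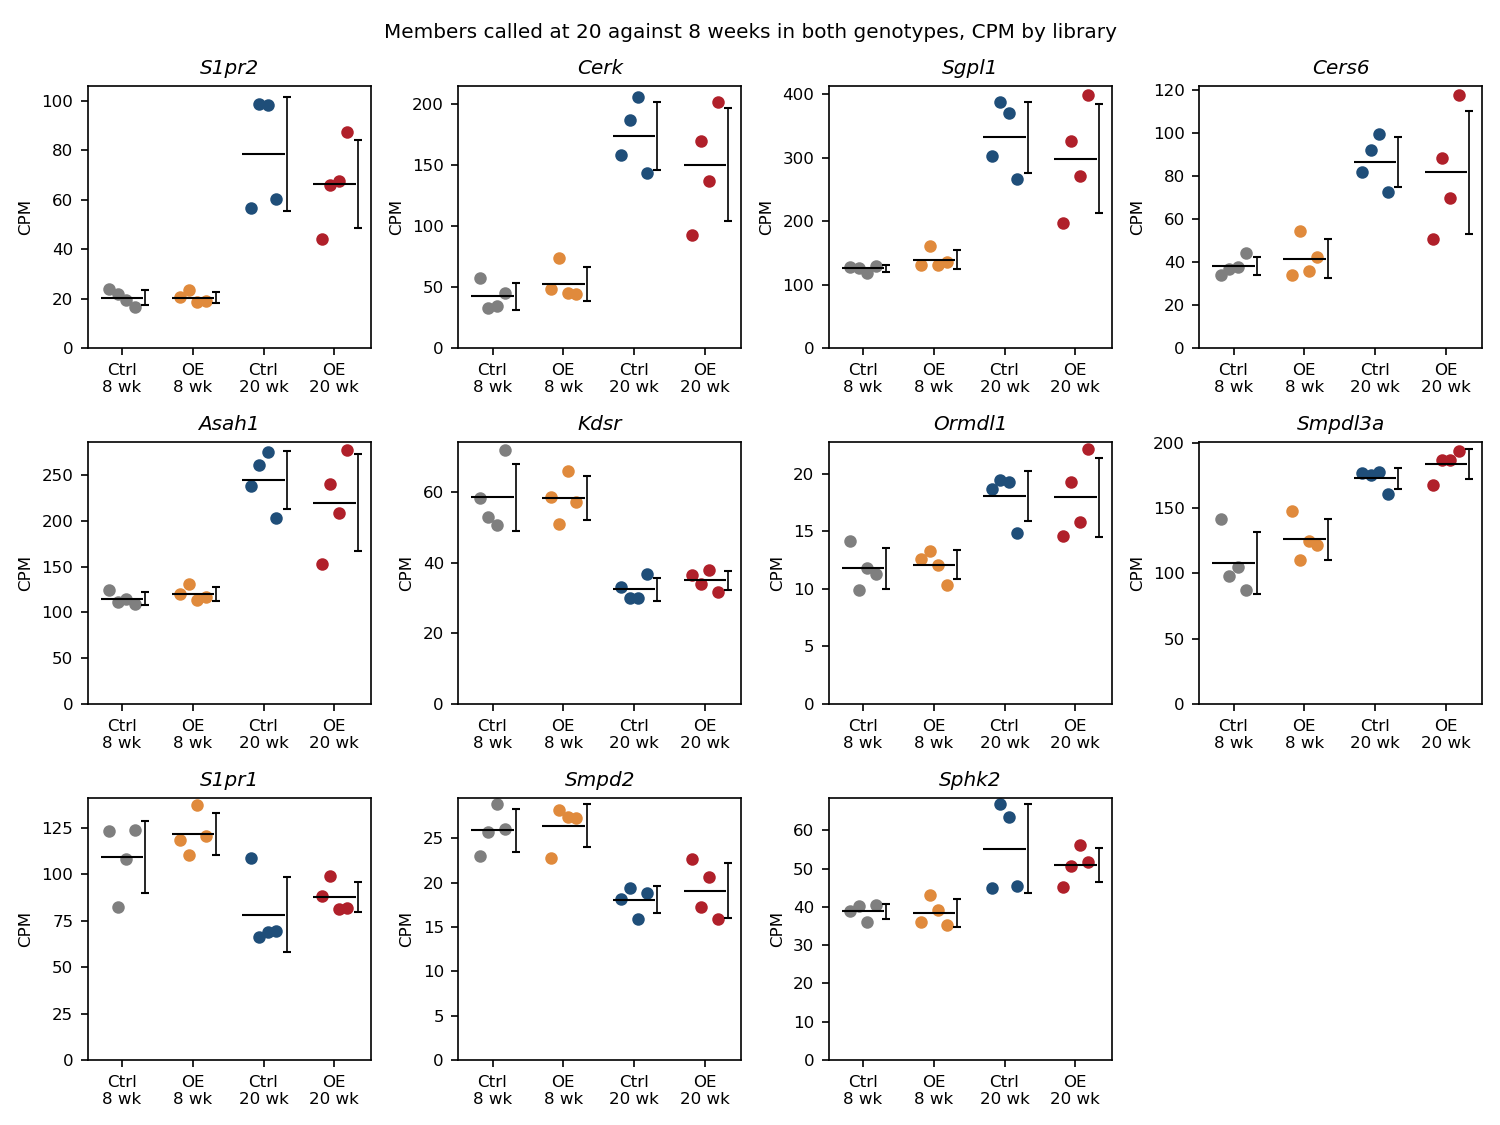
CPM of the 11 genes that passed in the same direction in both genotypes, 1 panel per gene, with 1 point per library in each of the 4 groups, a line at the mean and a bar of 1 SD to each side (n = 4). The 20-week points of S1pr2, Cerk, Sgpl1 and Asah1 lie above all 8-week points, those of Kdsr and Smpd2 lie below them, and OE_20wk replicate 1 is the lowest 20-week point for S1pr2, Cerk, Sgpl1, Cers6 and Asah1.

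Promoters are shown for the 4 genes called in both genotypes that rose most (by the smaller of their 2 fold changes) and for Kdsr, which fell, so that loci that moved together can be compared. RefSeq promoter windows on GRCm38.p6 (250 bases before to 50 bases after a transcript start) matched 35 of the 39 genes with 50 windows. Each is printed 5′ to 3′ on the strand of the gene, and capitals mark matches to the motifs searched on both strands.
S1pr2 (chr9:20976744-20977043, minus strand): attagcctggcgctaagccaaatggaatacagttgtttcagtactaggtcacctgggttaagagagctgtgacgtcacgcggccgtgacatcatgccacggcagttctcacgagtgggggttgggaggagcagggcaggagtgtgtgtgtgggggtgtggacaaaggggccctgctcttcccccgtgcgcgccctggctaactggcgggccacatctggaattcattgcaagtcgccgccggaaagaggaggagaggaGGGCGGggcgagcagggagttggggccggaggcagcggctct
Cerk (chr15:86186092-86186391, minus strand): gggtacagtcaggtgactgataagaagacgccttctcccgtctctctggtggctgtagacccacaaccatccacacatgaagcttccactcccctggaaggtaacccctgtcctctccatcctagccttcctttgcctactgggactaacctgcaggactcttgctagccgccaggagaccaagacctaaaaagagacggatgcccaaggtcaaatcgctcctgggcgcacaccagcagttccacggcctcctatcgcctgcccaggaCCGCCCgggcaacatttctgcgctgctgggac
Sgpl1 (chr10:61147635-61147934, minus strand): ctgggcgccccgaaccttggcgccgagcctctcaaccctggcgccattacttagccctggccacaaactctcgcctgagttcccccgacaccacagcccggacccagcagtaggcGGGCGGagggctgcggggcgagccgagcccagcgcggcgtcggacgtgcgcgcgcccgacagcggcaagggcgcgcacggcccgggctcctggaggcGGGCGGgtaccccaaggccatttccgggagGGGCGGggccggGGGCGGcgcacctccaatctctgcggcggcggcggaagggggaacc
Cers6 (chr2:68861191-68861490, plus strand): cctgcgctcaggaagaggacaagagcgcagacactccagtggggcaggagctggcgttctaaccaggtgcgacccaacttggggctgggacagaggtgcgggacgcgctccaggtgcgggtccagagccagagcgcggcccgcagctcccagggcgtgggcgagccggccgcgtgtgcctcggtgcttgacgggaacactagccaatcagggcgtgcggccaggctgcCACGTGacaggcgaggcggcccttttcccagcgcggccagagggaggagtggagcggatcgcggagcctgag
Kdsr (chr1:106759693-106759992, minus strand): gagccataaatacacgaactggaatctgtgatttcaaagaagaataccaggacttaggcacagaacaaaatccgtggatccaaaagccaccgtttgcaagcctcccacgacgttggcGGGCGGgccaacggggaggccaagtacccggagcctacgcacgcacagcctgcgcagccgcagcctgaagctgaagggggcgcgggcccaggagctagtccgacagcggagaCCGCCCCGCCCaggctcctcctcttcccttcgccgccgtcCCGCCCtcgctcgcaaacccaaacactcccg
The motifs were the GC box GGGCGG, the E-box CACGTG, the AP-1 site TGACTCA and the PU.1 core GAGGAA. With the start at position 0, S1pr2 had a GC box at 8 and Cerk 1 at 18, while Sgpl1 had 4, at −135, −38, −8 and 4. Kdsr had 4 as well, at −133, −21, −16 and 19, the middle pair sharing a base, and Cers6 had an E-box at −22. A GC box lay in 30 of the 50 member windows, an E-box in 9, an AP-1 site in 7 and a PU.1 core in 13, whereas 35.7%, 7.15%, 5.2% and 28.3% of all 32851 windows held them. Some genes have several windows, and overlapping windows, as in Sphk1, count the same site more than once. The windows are therefore not independent, and the shares were not tested. The 5 windows held 18 (S1pr2), 11 (Cerk), 38 (Sgpl1), 28 (Cers6) and 26 (Kdsr) CpG dinucleotides, beside a median of 7 over all windows. A match describes the letters only.

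Every one of the 11 genes called in both genotypes had a smaller absolute log2 fold change in OE than in Ctrl, as did 3063 of the 3907 genes called in both over the whole table. Over the 38 members, 35 had the same sign in Ctrl and OE (92.1%; 85.5% of all genes), with Pearson's r = 0.749 and Spearman's rho = 0.919 across genes, which share the libraries and are not independent. The test of the difference itself, the interaction of genotype and age, called 0 members and 0% of all genes in edgeR. DESeq2 called 0 members (0.156% of all genes) and limma voom 0 members (0%). At an unadjusted p under 0.05 it held 1 member, Degs2 (2.63%; 3.39% of all genes). The 7 members called in Ctrl alone are therefore not shown to differ between the genotypes.

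The comparison of OE with Ctrl asked what extra adipocyte LTA4H does to these genes after the shorter and the longer diet. No member was called at either age: edgeR called 0 of 38 at 8 weeks (0.0208% of all genes) and 0 of 38 at 20 weeks (0.0261% of all genes). At an unadjusted p under 0.05 there were 0 members at 8 weeks (2.21% of all genes) and 1 at 20 weeks (3.97%). DESeq2 called 0 members at 8 weeks (0.0782% of all genes) and 1, Degs2, at 20 weeks (0.307%), and limma voom called 0 at both ages (0.0625% and 0.104%). The members' median log2 fold change was −0.005 at 8 weeks and −0.011 at 20 weeks, beside 0.002 and 0.015 over all genes, and the median absolute value was 0.084 and 0.135, beside 0.106 and 0.138. The groups did not overlap for 1 member at 8 weeks, Sgpl1 (1.24% of all genes), and for 1 at 20 weeks, Degs2 (2.73%).

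**Figure D5:**
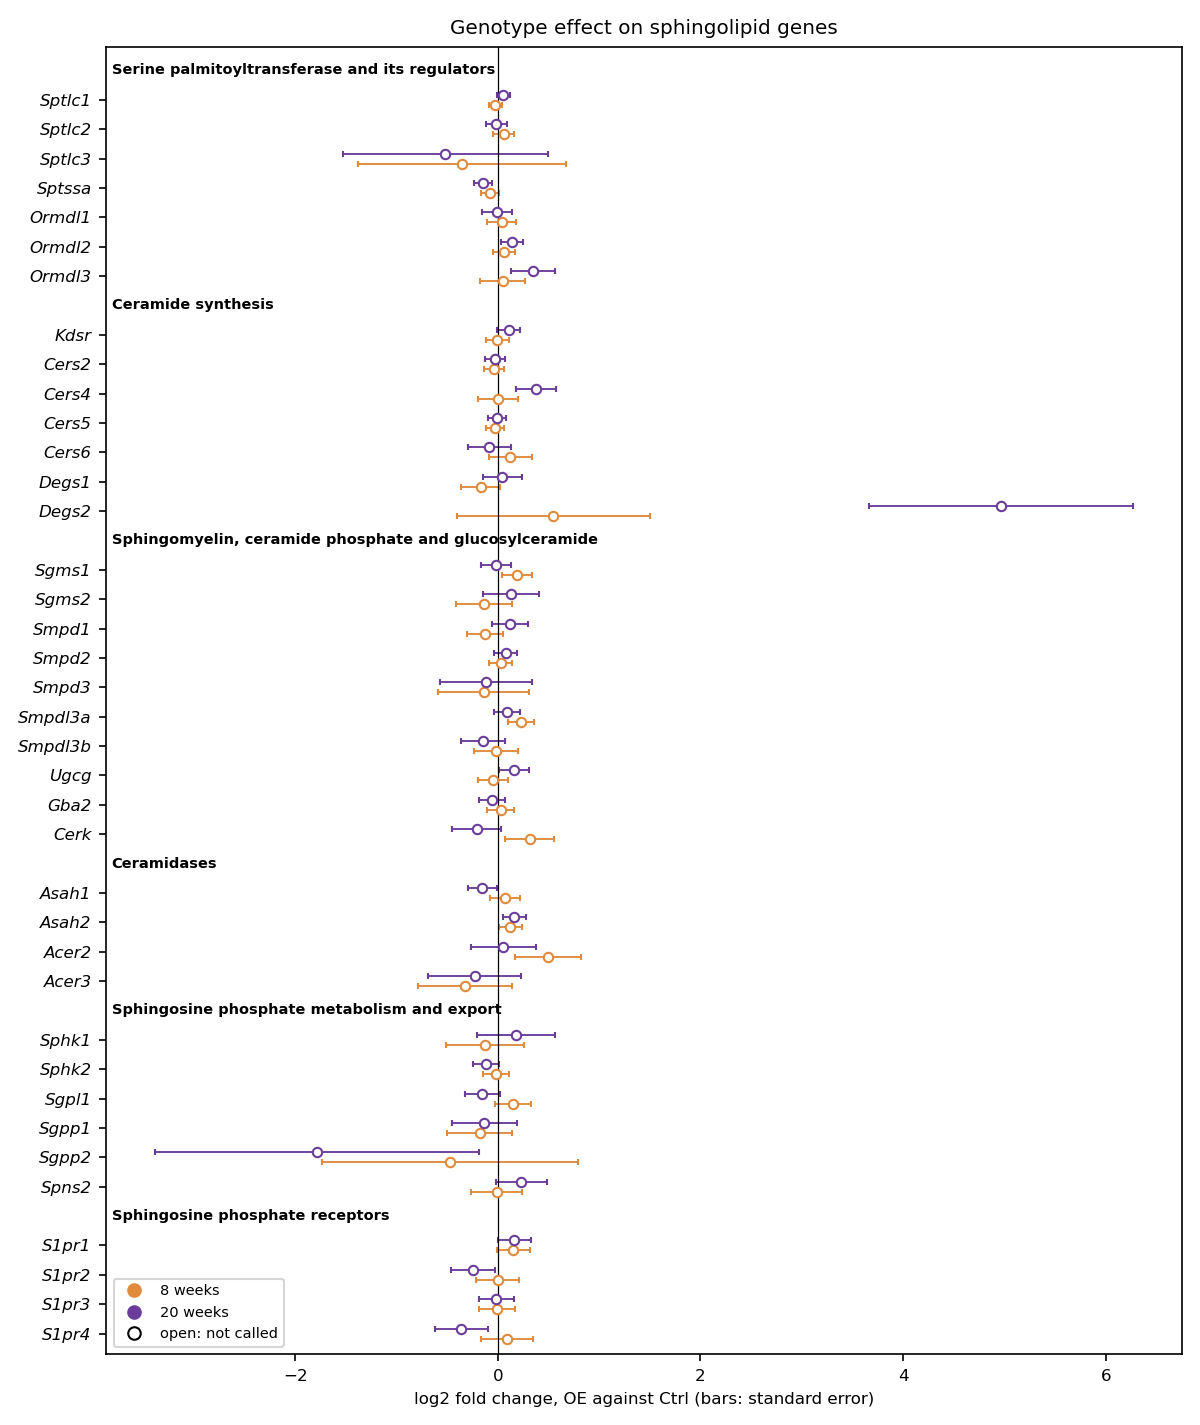
Log2 fold change of OE against Ctrl for each of the 38 tested genes at 8 weeks (orange) and 20 weeks (purple), grouped by role; points are estimates, bars standard errors, and open points did not pass the test. All points are open and most lie within 0.5 of 0, and Degs2 at 20 weeks stands far to the right at 4.96.

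At 8 weeks the 3 smallest p-values belonged to Smpdl3a, Acer2 and Cerk. Smpdl3a had 0.23 ± 0.13 (95% interval −0.05 to 0.50, adjusted p = 1), with the values given above overlapping between OE and Ctrl. Acer2 was at 27.3, 35.6, 21.9 and 41.0 CPM in Ctrl and 27.97, 37.7, 62.0 and 50.1 CPM in OE, an overlapping pair of groups with 0.50 ± 0.32 (95% interval −0.21 to 1.20, adjusted p = 1). Cerk had 0.31 ± 0.24 (95% interval −0.22 to 0.84, adjusted p = 1), and its highest 8-week value came from OE_8wk replicate 2, a library with epididymal transcripts. Some genes of ceramide synthesis had narrower 95% intervals at this age. These were −0.16 to 0.11 for Sptlc1, −0.17 to 0.29 for Sptlc2, −0.25 to 0.18 for Cers2 and −0.21 to 0.16 for Cers5. No interval is given here for the other genes of that route, such as Degs1 at −0.17 and Cers6 at 0.12.

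At 20 weeks they belonged to Degs2, Cers4 and Sptssa. Degs2 was at 0, 0, 0.0754 and 0 CPM in Ctrl and 1.01, 0.963, 0.105 and 0.766 CPM in OE, from 3 and 118 counts in all. Every OE library was above every Ctrl library, although OE replicate 3, with 4 counts, was close to Ctrl replicate 3, with 3. The ratio of the summed counts, scaled for library size, was 35.5 (95% exact interval 11.9 to 174.8, for counting error only), and the fitted difference was 4.96 ± 1.31 (unadjusted p = 0.00187, adjusted p = 0.834 in edgeR and 0.0391 in DESeq2). At 8 weeks Degs2 was at 0, 0.885, 1.09 and 1.19 CPM in Ctrl and 0.322, 1.16, 1.54 and 1.64 CPM in OE, which overlapped, and the interaction was 4.42 ± 1.61. In edgeR it had an unadjusted p = 0.0155 and an adjusted p = 0.982. Cers4 was at 55.5, 43.7, 50.01 and 66.2 CPM in Ctrl_20wk and 77.8, 74.1, 76.7 and 51.0 CPM in OE_20wk, after 90.0, 83.7, 82.3 and 54.0 CPM and 93.7, 53.3, 79.8 and 82.9 CPM at 8 weeks. OE replicate 4 lay inside the Ctrl range at 20 weeks, and the difference of 0.38 ± 0.20 (95% interval −0.06 to 0.81, adjusted p = 0.996) did not pass. Sptssa was at 84.6, 86.7, 95.6 and 78.3 CPM in Ctrl_20wk and 65.5, 81.4, 77.6 and 87.5 CPM in OE_20wk, and 65.7, 80.3, 73.7 and 70.3 CPM and 70.1, 67.5, 66.5 and 71.2 CPM in the same order at 8 weeks. It had −0.15 ± 0.09 at 20 weeks (95% interval −0.34 to 0.05, adjusted p = 0.996), with overlapping groups. For 6 of the genes called with age in both genotypes the difference between genotypes at 20 weeks was −0.24 ± 0.21 for S1pr2, −0.21 ± 0.24 for Cerk, −0.15 ± 0.18 for Sgpl1, −0.15 ± 0.15 for Asah1, −0.08 ± 0.21 for Cers6 and 0.11 ± 0.11 for Kdsr, none of which passed. In the interaction the smallest p-values after Degs2 were those of Cerk, at −0.52 ± 0.34 (95% interval −1.27 to 0.22), and Cers4, at 0.38 ± 0.28 (95% interval −0.24 to 0.99).

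The neighbouring genes of the pathway, 61 in 5 lists of which 58 were tested, were compared between the ages as well. In Ctrl 19 rose (32.8%, beside 19.6% of all genes) and 14 fell (24.1%, beside 21.3%), and in OE 21 rose (36.2%, beside 13.1%) and 6 fell (10.3%, beside 9.91%). The shares that fell were near those over all genes, and no share was tested against the share over all genes. None passed in either genotype comparison. Lysosomal breakdown, the route that shares its compartment with Asah1, had 8 of 9 genes that rose and 0 that fell in Ctrl, and 9 of 9 that rose in OE, and median log2 fold changes of 1.72 and 1.39. Among them Galc (galactosylceramidase) had 1.96 in Ctrl and 1.58 in OE, Hexa 1.80 and 1.39, and Gla (alpha-galactosidase) 2.50 and 2.24. Of 12 genes of glycosphingolipid synthesis, 6 rose and 2 fell in Ctrl, and 6 rose and 1 fell in OE, with B4galt6 (a lactosylceramide synthase) at 1.63 and 1.16 and B4galnt1 (which makes complex gangliosides) at 2.14 and 1.67. Of 20 tested further core enzymes and transporters, 4 rose and 3 fell in Ctrl, and 4 rose and 2 fell in OE. These included the lipid phosphate phosphatase gene Plpp2 at −0.65 and −0.59 and the glycolipid transfer gene Gltp at 0.88 and 0.78.

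Of 12 genes that lengthen the fatty acids used in ceramides, 1 rose and 6 fell in Ctrl, and 2 rose and 1 fell in OE. Hacd1, a dehydratase of that cycle, was at −0.80 and −0.40, and Elovl6, the elongase of palmitate, at −1.13 in Ctrl and −0.31 in OE, where it did not pass. Of the 5 tested genes of adiponectin, its receptors and the sphingosine phosphate carriers, 3 fell in Ctrl and 2 in OE. Adiponectin receptors are known for a ceramidase activity. Adipoq fell by 1.35 in Ctrl and by 1.02 in OE, Adipor2 fell by 0.79 and by 0.59, and Adipor1 had −0.05 and −0.03.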

How the data were processed

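Total RNA from epididymal white adipose tissue was made into TruSeq stranded mRNA libraries, per the labels' protocols. The tools named in the submitters' processing notes are HISAT2 2.1.0, StringTie 2.1.3b, bcl2fastq 2.20.0 and Trimmomatic, with the build mm10; the annotation release and the strand setting are not given in the sources used here. The authors deposited whole-number read counts per gene, not normalized, and these were tested. The authors' TPM (per kilobase, scaled to a fixed sum per library) served for levels and shares between genes, and the authors' FPKM values were deposited but not used.

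In R 4.3.3, edgeR 4.0.16 kept genes with filterByExpr at a minimum count of 10, scaled libraries by TMM and fitted all 16 libraries as 4 groups (robust quasi-likelihood, 12 residual degrees of freedom). Benjamini-Hochberg adjustment ran over the whole set of tested genes, with calls at an adjusted p under 0.05. CPM use TMM factors. Alternatives were DESeq2 1.42.0, limma voom (3.58.1), sva 3.50.0, DESeq2 size factors, no filter, a replicate block, only the groups compared, and libraries left out. The fit was tested on simulated data. Positions are RefSeq's on mm10, and exon overlaps come from GENCODE's mouse annotation of that build. Named genes were those called in both genotypes, the smallest p of each role group, and the 3 smallest of each genotype comparison and the interaction; of other pathway genes up to 4 per list. Some of those other pathway genes are counted but not reported by name here. The members and lists were chosen with earlier results of these data known. TPM shares were chosen after their values were seen. Figures used Python 3.11.15 and matplotlib 3.10.9.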

Additional observations from a re-analysis of the deposited data

Results flagged for a closer look

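In 16 of 152 sets of 4 libraries (each of the 38 tested genes in each of 4 groups), 1 library's CPM stood far from the other 3 by Dixon's test; chance flags about 1 in 20 sets, or 7.6 here. Ctrl_8wk replicate 4, where epididymal transcripts were found, stood out for Sptlc1 at 43.0 CPM, Sptlc3 at 3.05 CPM, Degs1 at 136 CPM and Acer3 at 55.4 CPM. OE_8wk replicate 2, the other library of the pair with epididymal transcripts, stood out for Ormdl2 at 16.8 CPM, Cerk at 73.5 CPM and Sgpl1 at 161 CPM. Ctrl_8wk replicate 1 stood out for Smpd3, at 106 CPM. At 20 weeks, Ctrl replicate 1 stood out for S1pr1 at 109 CPM, S1pr4 at 5.79 CPM and Sgpp2 at 0.406 CPM, and Ctrl replicate 4 for Sgms2 at 21.2 CPM and Smpdl3a at 161 CPM. Ctrl_20wk replicate 3 stood out for Degs2 at 0.0754 CPM, where the other 3 were at 0. In OE_20wk, replicate 4 stood out for Cers4 at 51.0 CPM and replicate 1 for Sgpp2 at 0.123 CPM. For Degs2 in Ctrl_20wk and Sgpp2 in OE_20wk the other 3 libraries were at 0, so any count above 0 would be flagged. These flags are among the 16.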

How the results depend on the processing

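For 38 values (the 18 age calls in Ctrl, the 11 in OE and the 9 named in the genotype comparisons and the interaction), the alternatives kept direction and side of the threshold 875 times, kept direction but lost the call 102 times, gained a call 1 time and changed sign 5 times. The 875 include the 9 values that had no call to lose, and fits that left out a library outside the comparison. They are therefore no measure of how stable the age calls are. The 5 changes of sign came with 2 surrogate variables, in the age comparison in Ctrl: Sptlc2 −0.063, Ormdl1 −0.025, Cers4 0.114, Smpd1 0.057 and Spns2 0.042. The cause was not tested. The setting with surrogate variables gave 1 member that rose and 0 that fell in Ctrl (11 and 7 in the fit reported), and 5 and 1 in OE (8 and 3). The 5 in OE included Ormdl3, which was not called in the fit reported. Of members not called with age, 7 of 20 in Ctrl and 9 of 27 in OE passed in at least 1 alternative (Acer3 in 5 and 6 of 26, Sptlc3 in 3 and 2, Sptlc2 in OE in 5, Spns2 in OE in 4), and 17 and 16 changed sign in at least 1. Limma voom gave 6 that fell in OE, where the fit reported gave 3. Of all genes, 3688 fell in OE in limma voom and 1902 in the fit reported. DESeq2 called 1 member in OE against Ctrl at 20 weeks, Degs2 at 5.17 (adjusted p = 0.0391).

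Leaving out 1 library at a time gave 9 to 12 that rose and 4 to 7 that fell in Ctrl, and 6 to 11 that rose and 2 to 3 that fell in OE. The 4 came without Ctrl_8wk 1, Ctrl_8wk 3, Ctrl_20wk 2 or Ctrl_20wk 3. Of all genes, these 16 fits gave 2965 to 3840 that rose and 2518 to 4318 that fell in Ctrl. In OE they gave 1719 to 3107 that rose and 1014 to 2679 that fell. S1pr2, Cerk, Sgpl1, Cers6, Asah1, Kdsr, Smpdl3a and Smpd2 were called in all 16 of these fits in both genotypes. With the replicate number as a block, 9 members rose and 6 fell in Ctrl and 8 rose and 2 fell in OE. Of all genes, 3384 rose and 3161 fell in Ctrl with that block, and 2262 and 1548 in OE. Same-numbered libraries correlated from −0.571 to 0.826, and at most 2 of 8 in a comparison correlated best with their own number. The numbers were not taken to pair the libraries. Genes with few counts (Sptssb, Degs2, Sgpp2, Sptlc3) limit what can be detected.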
